A study of Rattus norvegicus with 12 samples.

Results

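The erythroid and hemoglobin genes followed here were Hbb, Hbb-b1, Alas2, Ahsp, Slc4a1, Epb42 and Nfe2, 7 of the 12206 genes that could be named on the array. They were read by 8 of its 41012 probes, found by matching each probe's accession to the gene symbol. Each gene had 1 probe except Slc4a1, which had 2. The genes were chosen with their levels on these same arrays known, so their differences between groups are given as a description and without a test.

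The arrays carried RNA of the cerebral cortex of Wistar rat pups whose labelled age was 2 weeks, with 1 array for each pup and 4 groups of 3 pups. Saline control pups had no injury and received 100 µl of saline into the abdomen. MCI-186 control pups had no injury and received 9 mg/kg of MCI-186 (edaravone, a free radical scavenger) in saline. Rice saline and Rice MCI-186 pups had the left carotid artery cut between ligatures at 7 days of age, breathed 8% oxygen for 1 h after a recovery period, and then received the same saline or MCI-186 injection, repeated after 30 min. Tissue came from the ligated side of the brain, or that side in controls. No group carried a transgene or a deletion, and the labels do not say whether blood was perfused out of the brains.

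Red blood cells carry oxygen on hemoglobin, a tetramer of alpha-type and beta-type globin chains, each holding a heme. Immature red cells still contain globin messenger RNA, and circulating reticulocytes are plentiful in young rodents, so a tissue piece that holds blood can give these messages. Neurons and glia have also been described to contain some globin message, and in bulk tissue the source of a message cannot be seen. GATA1, KLF1 and NF-E2 are the DNA-binding factors best known for driving these genes, and they recognise GATA, CACCC and TGAGTCA-type motifs.

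RefSeq promoter sequences on the GRCr8 assembly were at hand for 4 of the 7 genes, Hbb, Hbb-b1, Alas2 and Epb42, and they are shown because these genes moved together from pup to pup. Each line is the 250 bases before the annotated start, on the strand of the gene. Capitals mark GATA motifs (AGATAA and AGATAG, or with T in the first place TGATAA and TGATAG) and CACCC, searched with TGAGTCA on both strands.
Hbb: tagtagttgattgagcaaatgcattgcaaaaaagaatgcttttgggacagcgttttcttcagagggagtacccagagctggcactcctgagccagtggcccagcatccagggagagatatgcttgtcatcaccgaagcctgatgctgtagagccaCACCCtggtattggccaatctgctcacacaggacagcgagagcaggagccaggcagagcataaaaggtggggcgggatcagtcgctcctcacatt
Hbb-b1: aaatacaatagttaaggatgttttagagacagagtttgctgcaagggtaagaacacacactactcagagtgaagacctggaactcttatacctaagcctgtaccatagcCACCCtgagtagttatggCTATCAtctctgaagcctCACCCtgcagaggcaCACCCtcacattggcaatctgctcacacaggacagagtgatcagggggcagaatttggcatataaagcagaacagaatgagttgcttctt
Alas2: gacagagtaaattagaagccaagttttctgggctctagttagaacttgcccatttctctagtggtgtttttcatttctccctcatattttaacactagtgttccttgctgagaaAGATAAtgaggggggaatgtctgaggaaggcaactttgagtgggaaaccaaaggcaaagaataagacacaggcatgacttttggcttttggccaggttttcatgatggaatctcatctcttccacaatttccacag
Epb42: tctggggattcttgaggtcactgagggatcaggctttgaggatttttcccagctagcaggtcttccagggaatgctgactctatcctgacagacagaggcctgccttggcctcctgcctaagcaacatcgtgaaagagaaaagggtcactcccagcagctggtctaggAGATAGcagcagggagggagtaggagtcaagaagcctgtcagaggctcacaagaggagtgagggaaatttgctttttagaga
These windows lie at chr1:167663722-167663971 on the minus strand for Hbb, chr1:167643521-167643770 on the minus strand for Hbb-b1, chrX:22895200-22895449 on the plus strand for Alas2 and chr3:128451684-128451933 on the minus strand for Epb42. The Hbb window held 1 CACCC, 95 to 91 bases before the start. The Hbb-b1 window held 3 CACCC and 1 TGATAG, the latter read on the opposite strand and so printed as its complement, and no 2 of these matches overlapped. Alas2 held 1 AGATAA, 136 to 131 bases before the start, and Epb42 held 1 AGATAG, 82 to 77 bases before it. None of the 4 windows held TGAGTCA. Among all 33469 promoters of the same length, 27.0% held one of the GATA words, 49.2% held CACCC and 4.05% held TGAGTCA, so the GATA and CACCC letters are common. In a global alignment, 68.4% of the bases of the Hbb and Hbb-b1 windows were identical, against 56.8% to 62.0% for the other 5 pairs. Hbb and Hbb-b1 lie in one cluster of beta-type globin genes with near-identical neighbours, and whether the probes also bind transcripts of those neighbours was not tested.

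Levels are log2 of the processed spot signal over the 75th percentile of the array, so 0 is the level of the 75th percentile and 1 unit is a doubling. Levels are compared between pups for 1 gene, not between genes. All 7 genes passed the filter on dim probes, which asked for a signal well above background on all 3 arrays of a group. 6 of them, all but Nfe2, were well above background on all 12 arrays, and no spot of the 8 probes was saturated or marked as an outlier.

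Hbb, a beta-type globin chain of adult hemoglobin, had levels of 5.37, 5.25 and 3.70 in the 3 saline control pups and 2.95, 2.87 and 3.29 in the MCI-186 control pups. In the Rice saline pups it had levels of 3.63, 3.89 and 2.96, and in the Rice MCI-186 pups 2.37, 4.87 and 2.64. The saline control and MCI-186 control pups did not overlap, while the Rice MCI-186 group spanned from the lowest of the 12 pups to the next after the 2 highest. Hbb-b1, another beta-type chain, had levels of 6.91, 6.88 and 6.32 in saline controls and 6.12, 6.15 and 6.27 in MCI-186 controls. In Rice saline pups its levels were 6.21, 6.32 and 5.94, and in Rice MCI-186 pups 5.98, 6.71 and 6.03. The order of pups was much like that of Hbb, over a narrower range of 0.97 against 3.00 for Hbb.

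Alas2, the erythroid form of the first enzyme of heme synthesis, had levels of 3.84, 3.50 and 2.55 in saline controls and 1.08, 1.12 and 1.75 in MCI-186 controls. Its levels were 2.75, 2.71 and 1.35 in Rice saline pups and 1.00, 4.01 and 0.84 in Rice MCI-186 pups. The second Rice MCI-186 pup was the highest of all 12 for Alas2, and the other 2 pups of that group were the lowest of all 12. Ahsp, a chaperone that holds free alpha-globin, had levels of 3.51, 3.09 and 2.31 in saline controls and 2.38, 2.19 and 2.51 in MCI-186 controls. In Rice saline pups Ahsp had levels of 2.44, 2.55 and 2.01, and in Rice MCI-186 pups 1.73, 3.00 and 1.54. The saline control and MCI-186 control pups overlapped for Ahsp, the only one of the 7 genes for which they did.

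Slc4a1, the anion exchanger known as band 3 of the red cell membrane, had levels of 1.26, -0.17 and -0.31 in saline controls and -1.97, -2.00 and -1.25 in MCI-186 controls. In Rice saline pups its levels were 0.12, -0.18 and -0.55, and in Rice MCI-186 pups -1.89, 1.03 and -1.41. These values come from the brighter probe of the gene. The other probe was well above background on 2 of 12 arrays, those of the first saline control pup and the second Rice MCI-186 pup, which were also the highest by the brighter probe. Epb42, protein 4.2 that ties band 3 to the membrane skeleton, had levels of -1.90, -2.73 and -3.18 in saline controls and -4.88, -4.75 and -4.29 in MCI-186 controls. In Rice saline pups Epb42 had levels of -3.38, -3.26 and -3.25, and in Rice MCI-186 pups -4.43, -1.87 and -4.33. It was highest of the 12 pups in the second Rice MCI-186 pup.

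Nfe2, the erythroid and megakaryocytic subunit of the factor NF-E2, had a different pattern. Its levels were -3.17, -3.97 and -4.66 in saline controls and -6.47, -7.25 and -7.36 in MCI-186 controls. In Rice saline pups Nfe2 had levels of -4.45, -3.96 and -3.42, and in Rice MCI-186 pups -2.40, -3.34 and -4.10. The MCI-186 control pups lay below all other pups, and the other 3 groups overlapped. Nfe2 was not well above background on any of the 3 MCI-186 control arrays and was so on all 9 others, so its level in that group is uncertain. Arrays of the first and second MCI-186 control pups also stood apart in their dim spots: 219 and 320 spots were at the lower limit set for the signal, against 6651 to 8294 on the other 10 arrays. These 2 arrays had 66.6% and 65.1% of spots well above background, the lowest of the 12. The third MCI-186 control array had 7915 spots at the limit and 69.7% well above background, and the lowest Nfe2 level of the 12. Without the other 2 MCI-186 control pups, the Nfe2 log2 difference was 4.08 for injury in MCI-186 pups and -3.43 for MCI-186 in controls. With all 3 pups these values were 3.74 and -3.09. The part of the dim spots in the Nfe2 level was not tested further.

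**Figure D1:**
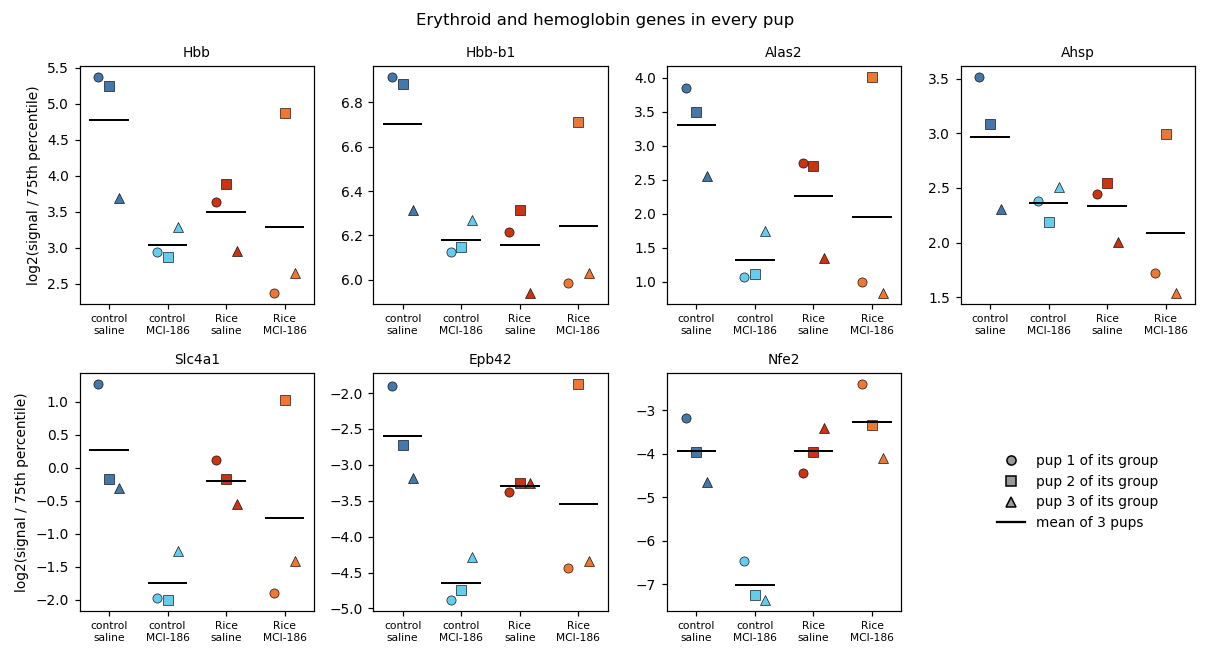
Level of each of the 7 genes (vertical axis, log2 of signal over the 75th percentile of the array, with its own range in each panel) in every pup, by group, with circles, squares and triangles for pups 1, 2 and 3 and a line at the mean of 3. The second Rice MCI-186 pup stands above its group for 6 genes, and the saline controls spread widely for all 7.

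Within groups, 6 of the genes rose and fell together from pup to pup. In saline controls pup 1 was the highest of its group for 7 of 7 genes and pup 3 the lowest for 7 of 7. In the Rice MCI-186 group pup 2 was the highest for 6 of 7, with Nfe2 the exception, and its mean deviation from the group over the 6 genes was 1.41. In MCI-186 controls pup 3 was the highest for the same 6 genes, with a mean deviation of 0.30. Rice saline pup 3 was the lowest for 5 genes, with Epb42 and Nfe2 the exceptions.

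Pearson's r between the deviations from the group mean, over 12 arrays that share 4 slides, was 0.841 to 0.992 for the 15 pairs of the 6 genes, with a median of 0.912. Without the second Rice MCI-186 pup, and with groups centred again, the 15 values were 0.589 to 0.995 with a median of 0.780. Without that pup and the first saline control pup, the 2 farthest from the median, they were 0.452 to 0.993 with a median of 0.631. Pairs with Nfe2 had r of -0.01 to 0.261. Differences between pups of the same group held 44.9% to 63.6% of the variance over the 12 arrays for the 6 genes and 12.2% for Nfe2, against a median of 25.6% over named genes. The SD within groups was 0.28 for Hbb-b1, 0.53 for Ahsp, 0.67 for Nfe2 and 0.81 to 1.05 for the other 4 genes, against a median of 0.17 over named genes.

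**Figure D2:**
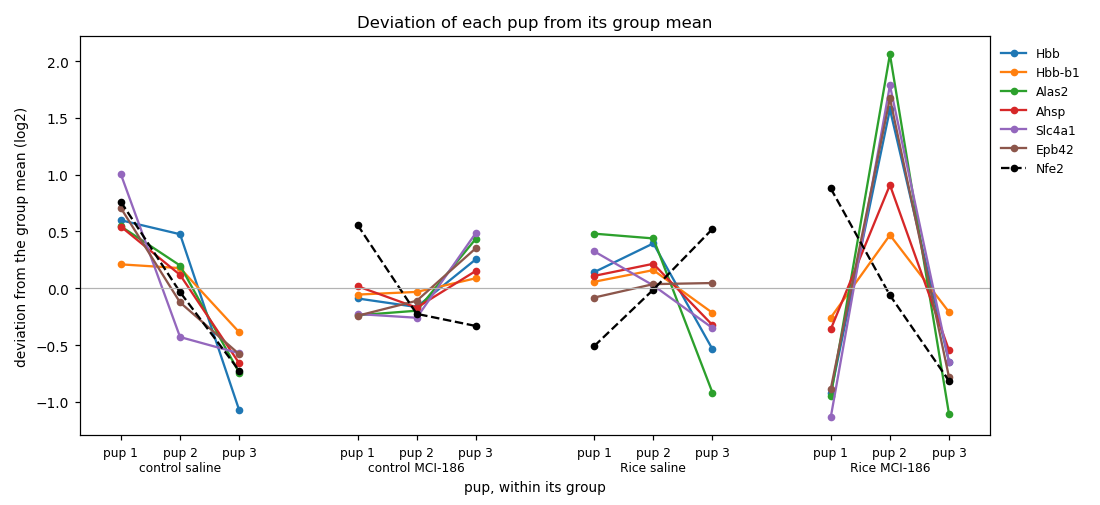
Deviation of each pup from the mean of its group (vertical axis, log2) for the 7 genes, with pups on the horizontal axis and lines joining the 3 pups of a group only to guide the eye. The 6 other genes (solid) follow each other, while Nfe2 (dashed) departs from them in 3 of the 4 groups.

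Markers of other cells were read in the same pups. In the Rice MCI-186 group the second pup, high for the 6 genes, had a summed level of 207 times the 75th percentile over 12 microglia and macrophage genes, against 380 and 383 in the other 2 pups. Its summed level over 9 cortical neuron genes was 80.1, against 64.8 and 61.0. Stmn2 made up 49.2% to 64.7% of the neuronal sum over the 12 pups. In the Rice saline group pup 3, low for 5 of the genes, had the highest microglial sum, 372 against 267 and 261, and the lowest neuronal sum, 56.1 against 77.5 and 62.7. In saline controls pup 3, the lowest for all 7 genes, instead had the lowest microglial sum, 35.1 against 40.5 and 44.7. Its neuronal sum was the highest, 107.8 against 101.4 and 99.3. In MCI-186 controls pup 3, the highest for the 6 genes, had the lowest microglial sum, 41.6 against 46.5 and 44.0. Its neuronal sum was the highest, 107.7 against 106.6 and 104.8. Injury moved both lists: in the saline arm 11 of 12 microglial genes rose and 7 of 9 neuronal genes fell, with 11 of 12 and 7 of 9 again in the MCI-186 arm (limma, adjusted over all features). Of all features 19.3% rose and 30.2% fell in the saline arm and 20.3% and 31.8% in the MCI-186 arm.

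Over 7 platelet and megakaryocyte genes the summed level was 44.9 to 53.7 in saline controls, 47.3 to 49.6 in MCI-186 controls, 22.7 to 30.9 in Rice saline and 24.0 to 32.4 in Rice MCI-186 pups. Gp1bb made up 92.1% to 99.1% of this sum, and fell by 1.05 and 0.93 after injury in the saline and MCI-186 arms (limma, adjusted p = 0.000525 and 0.000855). Pf4, platelet factor 4, went the other way and rose by 1.46 and 1.90 (limma, adjusted p = 0.00218 and 0.000491). Of these 7, Ppbp, Itgb3 and Gp1ba were not well above background on any array. Over 11 neutrophil genes the sum was 0.49 to 0.53, 0.46 to 0.64, 3.76 to 11.4 and 4.19 to 12.7 in the same order of groups, and Elane, Mmp8 and Cxcr2 were never well above background. Lcn2, which reactive astrocytes also express, made up 81.1% to 96.4% of this sum in injured pups, and 5 of 7 tested neutrophil genes rose in the saline arm and 2 of 7 in the MCI-186 arm. The endothelial sum over 10 genes was 41.3 to 43.4, 42.9 to 44.6, 35.2 to 36.8 and 35.4 to 39.0. Kdr made up 44.4% to 53.8% of it. The endothelial genes did not move as one: in each arm 4 of 10 rose after injury and 3 fell (limma, adjusted over all features). The T cell sum over 7 genes was 0.81 to 1.22, 1.01 to 1.31, 2.87 to 4.21 and 2.30 to 4.16. Cd3e was never well above background, and Cd6 made up 65.2% to 86.1% of the T cell sum. The astrocyte sum over 6 genes was 121 to 132, 121 to 125, 180 to 216 and 170 to 209, and Slc1a3 made up 39.0% to 54.2% of it. The part of any of these lists in the levels of the 7 genes was not tested, and in bulk cortex fewer cells of a type and less RNA per cell cannot be told apart.

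The comparison of injured and control pups asks what hypoxia-ischemia did to the cortex, and was made within the saline and within the MCI-186 arm. The 4 groups were hybridised on 4 different slides, and slide cannot be told apart from group in any comparison. A repeat injection is given in the labels for the Rice groups only, so it cannot be told apart from injury in either arm. In the MCI-186 arm the repeat was of the drug. After injury in saline pups all 7 genes had lower means, by 1.28 ± 0.62 for Hbb (limma's SE, log2, 3 against 3 pups), 1.03 ± 0.75 for Alas2, 0.69 ± 0.58 for Epb42, 0.64 ± 0.38 for Ahsp and 0.55 ± 0.21 for Hbb-b1. For Slc4a1 the difference was -0.46 ± 0.67 and for Nfe2 -0.01 ± 0.48. The median of the 7 was -0.64, beside -0.15 over all features. None of the 7 passed the threshold of 0.05 on the adjusted p, where 49.5% of all features did, and 30.2% of all features (7818) passed as lower. Just 1 of 7, Epb42, had lower levels without overlap, beside 34.8% of features. Since the genes were chosen with this contrast known, nothing is read from these counts. The size rested on single pups: without the first saline control pup the Slc4a1 difference was 0.04 and that of Nfe2 0.37, and over the pups left out in turn the median was -0.97 to -0.37.

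After injury in MCI-186 pups 6 genes had higher means and Ahsp a lower one, with differences of 0.26 ± 0.62 for Hbb, 0.06 ± 0.21 for Hbb-b1, 0.63 ± 0.75 for Alas2, -0.27 ± 0.38 for Ahsp, 0.98 ± 0.67 for Slc4a1 and 1.09 ± 0.58 for Epb42. 3 of these directions, those of Hbb, Hbb-b1 and Alas2, turned when the second Rice MCI-186 pup was left out. Over the pups left out in turn Ahsp was at -0.73 to 0.003. Without the second Rice MCI-186 pup the differences were -0.53 for Hbb, -0.17 for Hbb-b1, -0.40 for Alas2, -0.73 for Ahsp, 0.09 for Slc4a1 and 0.26 for Epb42, and the median of the 7 went from 0.63 to -0.17. The median over all features was -0.14.

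By measured signal Nfe2 was 13.4-fold higher in Rice MCI-186 than in MCI-186 control pups, with means of -3.28 and -7.03. Raising each dim array to the smallest signal well above background there did not change this fold. The dimmer mean was not well above background, so the fold is not a minimum and depends on the processing. Nfe2 was the 1 gene of 7 that passed as higher, beside 20.3% of features, and the 1 that did not overlap in that direction, beside 24.7%. Nothing is read from these counts, since Nfe2 was chosen with this contrast known. With normexp background correction, which changes dim spots most, the difference was 1.09 on the log2 scale in place of 3.74.

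The comparison of MCI-186 with saline asks what the scavenger did, in injured pups and in controls, and shares each group with an injury comparison above. In injured pups 5 genes had lower and 2 higher means after MCI-186, with differences from -0.56 ± 0.67 for Slc4a1 to 0.66 ± 0.48 for Nfe2 and a median of -0.25, beside 0.01 over all features. None of the 7 passed, where 0 of 25899 features did by limma and 659, or 2.54%, had an unadjusted p under 0.05. Without the second Rice MCI-186 pup the median was -0.98, with Alas2 at -1.35, Slc4a1 at -1.45, Epb42 at -1.09 and Hbb at -0.98.

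In control pups all 7 genes had lower means after MCI-186. Slc4a1 was lower by 4.01-fold, Epb42 by 4.11-fold, Alas2 by 3.95-fold and Hbb by 3.33-fold. On the log2 scale the differences were -2.00 ± 0.67 for Slc4a1, -2.04 ± 0.58 for Epb42, -1.98 ± 0.75 for Alas2, -1.74 ± 0.62 for Hbb, -0.61 ± 0.38 for Ahsp and -0.52 ± 0.21 for Hbb-b1. The median was -1.98, beside 0.01 over all features. Without saline control pup 1 the Ahsp difference was -0.34, and without saline control pup 3 it was -0.94. Over the pups left out in turn the others were -2.27 to -1.44 for Hbb, -0.72 to -0.42 for Hbb-b1, -2.35 to -1.71 for Alas2, -2.29 to -1.50 for Slc4a1 and -2.33 to -1.68 for Epb42. 6 genes, all but Ahsp, had lower levels without overlap, beside 11.2% of features. Since the genes were chosen with their levels known, nothing is read from this count. Without MCI-186 control pups 1 and 2 the differences were -1.48 for Hbb, -0.44 for Hbb-b1, -1.55 for Alas2 and -0.46 for Ahsp. For Slc4a1 the difference was then -1.52 and for Epb42 -1.68. With normexp correction the Epb42 difference was -1.05, while those of Hbb, Hbb-b1, Alas2, Ahsp and Slc4a1 were -1.76, -0.52, -2.00, -0.59 and -1.82.

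By measured signal Nfe2 was 8.54-fold lower in MCI-186 control than in saline control pups, with means of -7.03 and -3.93. It was the 1 gene of 7 past the threshold as lower, beside 0.0888% or 23 of 25902 features, and nothing is read from this count. It was no longer past the threshold in 13 of 16 other settings, among them without saline control pup 1 or 2 and without any 1 of the MCI-186 control pups. With normexp correction it was -0.82.

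The difference between the injury effects of the 2 arms was above 0 for all 7 genes, from 0.37 ± 0.54 for Ahsp to 1.79 ± 0.82 for Epb42 among the 6 genes well above background throughout. For Nfe2 it was 3.76 by measured signal, and 1.18 with normexp correction. The 7 values had a median of 1.54 beside -0.003 over all features. None passed, where 6 of 25899 features, 0.0232%, did. Without the second Rice MCI-186 pup the median was 0.63 and Ahsp was at -0.09. The same saline control and MCI-186 control pups enter this value and the comparison of MCI-186 in controls.

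**Figure D3:**
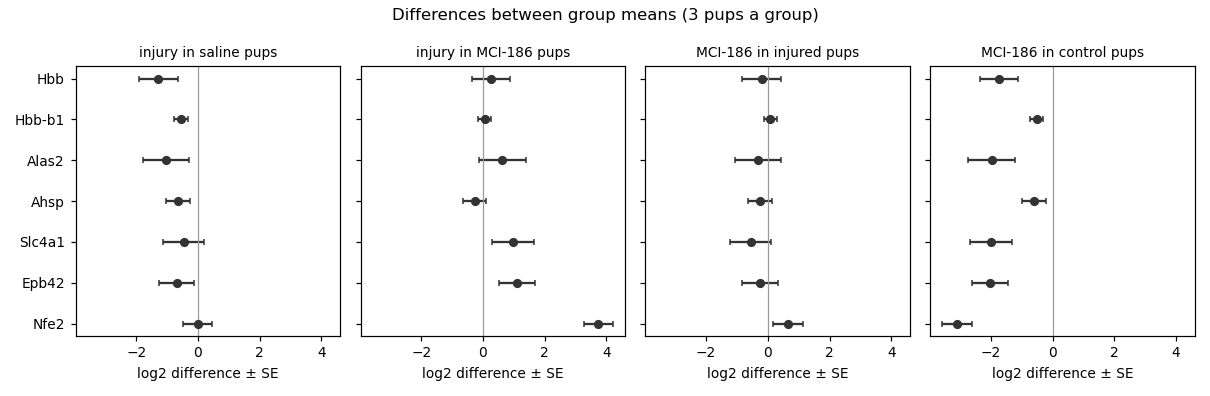
Difference between group means (horizontal axis, log2, with limma's SE as bars) for the 7 genes in the 4 comparisons of 3 against 3 pups. All 7 lie at or below 0 for injury in saline pups and below 0 for MCI-186 in control pups. Nfe2 in the panels that use MCI-186 controls, at 3.74 and -3.09, rests on signal not well above background in those controls.

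Other genes of the same pathways were counted from lists written with earlier results of these arrays known. Of 14 other globin genes 4 were on the array and 2, Hba-a3 and Hbe2, passed the dim filter, while Hbe1 and Hbg1 did not. Hba-a3, an alpha-type globin, had levels of 8.74, 8.41 and 7.78 in saline controls, 6.52, 6.55 and 7.03 in MCI-186 controls, 7.95, 8.04 and 6.89 in Rice saline and 6.76, 8.53 and 6.57 in Rice MCI-186 pups. As for Hbb, saline controls lay above MCI-186 controls without overlap and the second Rice MCI-186 pup was the highest of its group, though the lowest pups were MCI-186 controls for Hba-a3 and Rice MCI-186 pups for Hbb. Its difference for MCI-186 in controls, -1.61 ± 0.49, did not pass (limma, adjusted p = 0.336), nor did that for injury in saline pups, -0.68 ± 0.49 (limma, adjusted p = 0.27), or in MCI-186 pups, 0.58 ± 0.49 (limma, adjusted p = 0.341). Without the second Rice MCI-186 pup the last was -0.04. Hbe2, an embryonic beta-type globin gene, had differences of -1.08 for MCI-186 in controls and -0.68 and 0.97 for injury in the saline and MCI-186 arms, with 0.28 for the last without that pup.

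**Figure D4:**
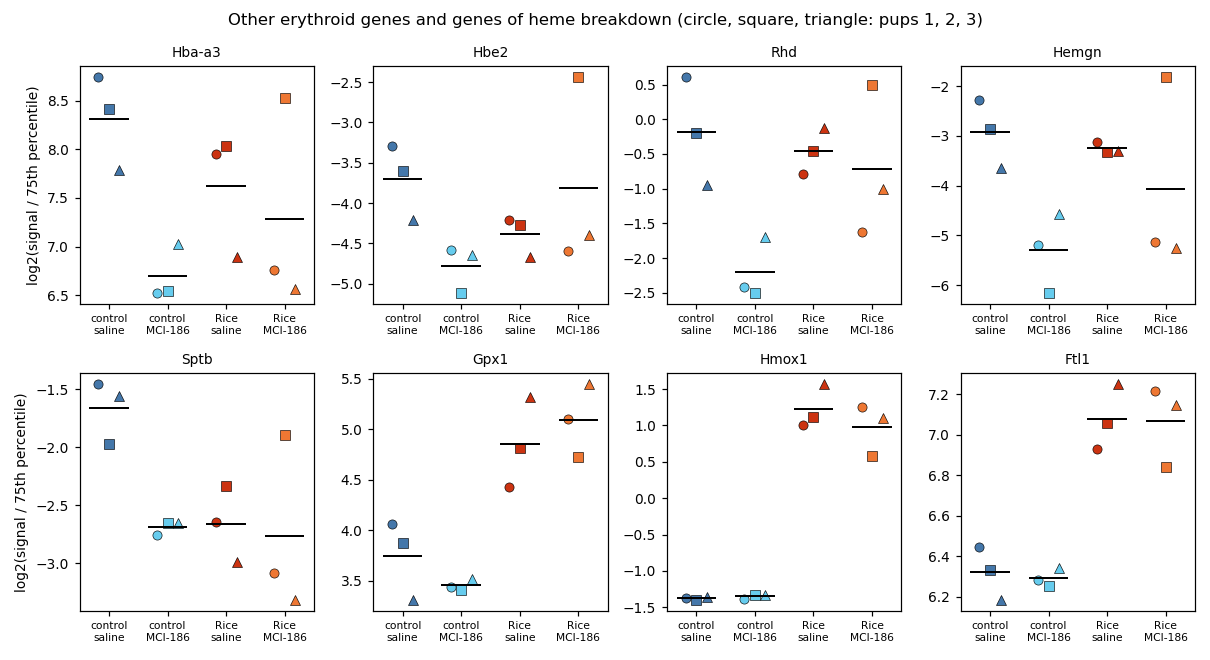
Levels (vertical axis, log2 of signal over the 75th percentile, own range in each panel) of 8 other genes by group, with circles, squares and triangles for pups 1, 2 and 3 and a line at the mean. Hba-a3, Hbe2, Rhd, Hemgn and Sptb have, like the 6 genes other than Nfe2, a second Rice MCI-186 pup above the rest of its group, whereas Gpx1, Hmox1 and Ftl1 separate injured from control pups. Rhd and Hemgn were chosen for display after their values were seen.

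Of 6 genes of the red cell membrane and skeleton, 1 rose and 3 fell after injury in saline pups. In MCI-186 pups 2 rose and 3 fell. Of all features 19.3% rose and 30.2% fell in the saline arm, and 20.3% and 31.8% in the MCI-186 arm. Nothing is read from the counts of this list or of those below. Sptb, beta-spectrin, had levels of -1.46, -1.97 and -1.56 in saline controls and -2.65, -2.34 and -2.99 in Rice saline pups, without overlap, and fell by 1.00 ± 0.32 (limma, adjusted p = 0.0247). The call was lost without saline control pup 1 or 3 or Rice saline pup 3, and in the MCI-186 arm the difference was -0.08 (limma, adjusted p = 0.854) and -0.51 without the second Rice MCI-186 pup. Its deviations had r of 0.822 with the mean of the 6 genes, and 0.341 without that pup. Add2, beta-adducin, and Tmod1, tropomodulin, both of which neurons also express, fell by 1.08 and 1.53 in saline pups (limma, adjusted p = 0.00511 and 0.00217). In the MCI-186 arm they fell by 1.29 and 1.45 (limma, adjusted p = 0.00191 and 0.00254), which no longer passed without MCI-186 control pups 1 and 2. The Add2 values come from its brighter probe. Its other probe, also well above background on all 12 arrays, fell less, from a mean of 2.00 to 1.45 in saline pups. In the MCI-186 arm that probe went from 1.90 to 1.46. Gypc, glycophorin C, rose by 0.57 (limma, adjusted p = 0.018) and 1.23 (limma, adjusted p = 0.000313), the former lost without saline control pup 2, Rice saline pup 2 or Rice saline pup 3.

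Of 9 genes of erythroid transcription and the erythropoietin receptor, 4 rose and 1 fell in saline pups. In MCI-186 pups 5 rose and 1 fell. Beside these counts, 19.3% of all features rose and 30.2% fell in the saline arm, and 20.3% and 31.8% in the MCI-186 arm. Lmo2, a bridging factor of the GATA1 complex that endothelial cells also express, rose by 0.65 ± 0.14 (limma, adjusted p = 0.00363) and 0.84 ± 0.14 (limma, adjusted p = 0.000877). Its deviations ran opposite to the mean of the 6 genes, with r of -0.94 over 12 arrays and -0.88 without the second Rice MCI-186 pup. Tal1, a partner of GATA1, rose by 1.75 and 1.43 by its brightest probe (limma, adjusted p = 4.41e-05 and 0.000134), and by 0.55 and 0.44 with normexp correction. That probe was well above background on 1 of 3 arrays in each control group and on all 6 injured arrays, so it too was tested through the groups where it was high. The 2 other Tal1 probes were well above background on 8 and 3 arrays. The former went from a mean of -6.06 to -4.59 in the saline arm, but only from -4.99 to -4.82 in the MCI-186 arm. The latter went from -6.12 to -5.89 and from -6.15 to -5.65. Epor, the erythropoietin receptor, was by measured signal 2.13-fold higher after injury in saline pups (limma, adjusted p = 0.00561) and 1.72-fold in MCI-186 pups (limma, adjusted p = 0.0252). It was well above background on 0 of 6 control arrays, on 3 Rice saline and on 2 Rice MCI-186 arrays, so it was tested only because it was above background in Rice saline pups. The first call was lost with normexp correction at a difference of 0.17, and the second turned to -0.03 there and was lost without the first or second pup of either MCI-186 group. Mafg, a small Maf partner of NFE2, fell by 0.27 and 0.41 (limma, adjusted p = 0.0306 and 0.00403), the former lost without pup 2 or pup 3 of either saline group, the latter without MCI-186 control pups 1 and 2. Klf1, whose product binds CACCC motifs, was at -0.53 and -0.34 and did not pass (limma, adjusted p = 0.122 and 0.3).

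Heme synthesis, which Alas2 starts in red cells, gave 2 higher and 3 lower of 11 tested genes in saline pups. In MCI-186 pups 1 was higher and 4 lower. The shares of all features were 19.3% higher and 30.2% lower in the saline arm, and 20.3% and 31.8% in the MCI-186 arm. Alas1, the form of the same enzyme used outside red cells, fell by 0.47 ± 0.09 (limma, adjusted p = 0.00201) and 0.62 ± 0.09 (limma, adjusted p = 0.000403). Uros, a later enzyme of the pathway, fell by 0.36 and 0.44 (limma, adjusted p = 0.0181 and 0.00638), the former lost without saline control pup 2 or Rice saline pup 2 or 3 and the latter without MCI-186 control pups 1 and 2. Slc25a39, a mitochondrial carrier, rose by 0.33 and 0.51 (limma, adjusted p = 0.0342 and 0.00398), the former lost in 7 of 16 other settings. These were saline control pup 2 or 3 or Rice saline pup 2 or 3 left out, the mean of its probes, only the groups compared, and a replicate block. The latter was lost without MCI-186 control pups 1 and 2. Abcb10, a mitochondrial transporter, fell by 0.54 in saline pups (limma, adjusted p = 0.0075), with -0.28 in the MCI-186 arm (limma, adjusted p = 0.0994), which passed at -0.38 without the second Rice MCI-186 pup.

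Genes that clear hemoglobin and break down heme gave 4 higher and 2 lower of 10 in saline pups. In MCI-186 pups 5 were higher and 3 lower. Of all features 19.3% rose and 30.2% fell in the saline arm, and 20.3% and 31.8% in the MCI-186 arm. The higher genes included Hpx in both arms and Cd163 in the MCI-186 arm. In saline and MCI-186 controls Hpx was well above background on 1 and 0 arrays, and Cd163 on 2 and 1. Both were tested only through injured groups, where they were high. Hmox1, the inducible heme oxygenase, had levels of -1.40 to -1.36 in saline controls and 1.00 to 1.57 in Rice saline pups, and rose by 2.61 ± 0.18 (limma, adjusted p = 5.81e-06). In the MCI-186 arm it rose by 2.33 ± 0.18 (limma, adjusted p = 9.97e-06), and the second Rice MCI-186 pup, high for the globin genes, was the lowest of its group at 0.58 against 1.25 and 1.10. Hmox2, the constitutive form, fell by 0.76 and 0.86 (limma, adjusted p = 0.000321 and 0.00013). Ftl1, ferritin light chain, rose by 0.76 and 0.77 (limma, adjusted p = 0.000912 and 0.000716). Blvra, biliverdin reductase A, fell by 0.65 in the MCI-186 arm (limma, adjusted p = 0.00139), and had -0.25 in saline pups (limma, adjusted p = 0.0944), which passed without the first saline control pup. Of 5 red cell enzymes 1 rose in saline and 2 in MCI-186 pups, and none fell, beside the same shares of all features. Gpx1, glutathione peroxidase, rose by 1.11 and 1.64 (limma, adjusted p = 0.00544 and 0.000652), and Cat, catalase, by 0.56 in the MCI-186 arm (limma, adjusted p = 0.00263), lost without MCI-186 control pups 1 and 2. In neither comparison of MCI-186 with saline did a gene of these 6 lists pass, and none did for the difference between the injury effects.

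Likeness to the 6 genes was measured as Pearson's r, over the 12 arrays, between a gene's deviations from its group means and the mean deviation of the 6. Of 9236 other named genes 51 had r over 0.9. The 10 highest were Cd52 at 0.990, Pim1 at 0.984, Ybx3 at 0.983, Tmem86b at 0.976, Hbe2 at 0.969, Car2 at 0.964, Hba-a3 at 0.961, Pcsk4 at 0.957, Ttc22 at 0.955 and Fbxo21 at 0.951. Both other globin genes that passed the dim filter are among them, and Car2 encodes carbonic anhydrase II, abundant in red cells and also found in oligodendrocytes. Cd52, a surface protein known from lymphocytes, had levels of 1.46, 0.85 and -0.47 in saline controls, -1.62, -1.60 and -1.14 in MCI-186 controls, -0.12, -0.22 and -1.39 in Rice saline and -1.97, 1.03 and -1.89 in Rice MCI-186 pups. Without the second Rice MCI-186 pup the 10 values of r were 0.836 to 0.977, and without it and the first saline control pup they were 0.770 to 0.973.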

How the data were processed

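Cortical RNA of 12 rat pups was read on 12 one-colour Cy3 arrays, and groups and replicate numbers came from the sample titles. Per the file headers, the scanner output used here is linear spot intensity with background already subtracted, written by version 9.5.3.1 of Agilent's Feature Extraction software. A table of log2 values was also deposited, and how the authors made it is not stated in the labels. Its columns had medians of -0.12 to 0.12 and correlated at 0.965 or more with the recomputed values after each probe was centred, so it served as an alternative.

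The processed signal was divided by the 75th percentile of its array (920 to 1258 intensity units), set to at least 0.005 of it and then put on a log2 scale. Spots flagged as controls or outliers were dropped and spots of a probe averaged. Between 65.1% and 73.7% of spots were well above background, and precision is limited by the count of arrays. Probes were kept where well above background on all 3 arrays of a group (28531 of 41012). Accessions were named through RefSeq genes of GRCr8: 15184 probes had 1 symbol, 0 had several and 25828 were unnamed. For genes with several probes the brightest was used.

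A model of 4 group means was fitted with limma 3.58.1 in R 4.3.3 (8 residual degrees of freedom), checked on simulated data, with Benjamini-Hochberg adjustment over about 25900 features and a threshold of 0.05. Members and lists were chosen with earlier results of these data known. Named genes were the members, the 10 genes most like them, at most 4 genes of each list with the lowest adjusted p in either injury comparison, and the measured globin genes. A gene of the lists is not reported here and was left out of their counts. Alternatives were other background corrections, scalings, floors, filters, probe rules, the deposited table, a replicate block, fits of only the groups compared and each pup left out. Normexp, planned on the mean signal, was run on the median signal and median background, the columns used here. Replicate numbers did not pair the pups: same-numbered pups' deviations had r of -0.28 to 0.54. Labels describe separate pups. No pathway-set test was run. Promoters were read with Python 3.11.15 and aligned with Biopython 1.88.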

Additional observations from a re-analysis of the deposited data

How the results depend on the processing

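For the 4 pairwise comparisons and the difference between the injury effects, 2 values were recomputed under each alternative. These were the count of features that passed and the median of the 7 genes. Of 174 recomputed values 151 moved by less than their tolerance. Medians could not move with a replicate block or in fits of only the groups compared, since both keep the differences between group means. Normexp correction gave 13 features for MCI-186 in controls in place of 31, 2 for the difference between the injury effects in place of 6, a median of the 7 genes of -1.05 for MCI-186 in controls in place of -1.98, and -0.030 for Epor in the MCI-186 arm, a turned sign. No filter on dim probes gave 1 feature for MCI-186 in injured pups in place of 0 and 49 for MCI-186 in controls. Only probes well above background on all 12 arrays gave 16 for MCI-186 in controls and 3 for the difference between the injury effects, and the mean of a gene's probes gave 3 for the latter. Leaving out MCI-186 control pups 1 and 2, chosen after seeing the data, gave 14 features for MCI-186 in controls and 5021 for injury in MCI-186 pups in place of 13476. The cause of each was not tested.

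Leaving out 1 pup at a time gave 9958 to 12577 features for injury in saline pups, 10353 to 14066 for injury in MCI-186 pups, 0 to 1 for MCI-186 in injured pups, 15 to 32 for MCI-186 in controls and 2 to 12 for the difference. The medians of the 7 genes were then -0.97 to -0.37, -0.17 to 1.19, -0.98 to 0.19, -2.29 to -1.50 and 0.63 to 2.03. The data do not bear out the replicate number as a pairing (4 of 12 arrays correlated best with an array of their own number). As a block it gave 11971, 12737, 0, 13 and 3 features. The 5 medians could not change with this block, since each group holds each replicate number once.

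The number of pups limits these results: 3 pups a group, with a within-group SD of up to 1.05, and 1 slide a group. Nfe2 lies near background in MCI-186 controls, so its size depends on the background correction.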
